A study of Rattus norvegicus with 6 samples.

Results

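Amino acid transporters were described in rat primary cells from the superficial layer of joint cartilage, which borders the joint fluid. The genes were those of the solute carrier families SLC1, SLC3, SLC6, SLC7, SLC36, SLC38 and SLC43, chosen by their symbols in the deposited count table; the cystine transporter Slc7a11 was left out. The rule found 58 of the table's 32161 genes. The shear group held 3 RNA libraries from cells under fluid shear stress of 20 dyne/cm², and the static group 3 libraries from the same kind of cell at 0 dyne/cm². The labels name no strain, age, genotype, other agent or duration of flow. Nothing in them tells whether replicate libraries are from different animals or dishes, and the spread behind each p-value may therefore be technical. The series asks how flow alters gene expression in these cells, and its title names the Hippo pathway.

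Cells cannot make all the amino acids they need, and import them through carriers that differ in substrate and in what drives them. Sodium-coupled carriers of the SLC38 and SLC1 families concentrate small neutral amino acids and glutamine or glutamate inside the cell. Exchangers of the SLC7 family then trade these for leucine, other large amino acids or cystine, and other SLC7 members carry cationic amino acids. Several SLC7 exchangers reach the cell surface only when bound to a heavy chain of the SLC3 family. Transcription of Slc38a2, Slc7a1, Slc7a5 and Slc3a2 is known, in other mammalian cells, to rise when amino acids run short, through the transcription factor ATF4. In cartilage, imported amino acids feed the synthesis of matrix proteins.

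Of the 58 genes, 31 had enough counts to be tested, 19 had a few counts and 8 had 0 counts in every library. Libraries held 33342775 to 33979479 counts. In a bulk sample, fewer cells of a type and less RNA per cell cannot be told apart. Of 5 superficial zone markers 3 rose under shear, Prg4 (22.4 CPM in shear and 18.8 CPM in static libraries; CPM, counts scaled to a library total of 1000000), Thbs4 (91.3 CPM in shear and 81.2 CPM in static libraries) and Abi3bp (28.9 CPM in shear and 21.8 CPM in static libraries). Creb5 fell (4.69 CPM in shear and 6.45 CPM in static libraries, edgeR adjusted p = 0.0116), and Cilp was below 1 CPM and not called. Of 6 chondrocyte markers Sox9, the transcription factor of cartilage formation, rose (15.6 CPM in shear and 6.53 CPM in static libraries, edgeR adjusted p = 1.76e-10) and Acan, the core protein of the main cartilage proteoglycan, fell (11.3 CPM in shear and 14.2 CPM in static libraries, edgeR adjusted p = 0.00653). The other 4, among them the cartilage collagen gene Col2a1 (0.14 CPM in shear and 0.21 CPM in static libraries), were below 1 CPM, beside 6602 CPM of the fibroblast marker Col1a1 in shear and 6098 CPM in static libraries. Marker lists of macrophages and leukocytes, endothelium, neurons and glia, osteoblasts and adipocytes each summed to at most 11.8 CPM in every library, with the endothelial marker Emcn and the neuronal marker Rbfox3 at 0. The 7 skeletal muscle markers summed to 34.8 to 38.2 CPM in shear and 60.3 to 63.4 CPM in static libraries, and 5 endothelial markers to 5.24 to 9.22 CPM in shear and 9.79 to 11.8 CPM in static libraries. Of these, 4 of 6 tested muscle markers and 1 of 3 tested endothelial markers, Kdr, were lower under shear. Myh3, an embryonic muscle myosin, made up most of the muscle difference (1.68 CPM in shear and 21.9 CPM in static libraries), while Des (15.5 CPM in shear and 16.1 CPM in static libraries) and Myh4 (13.9 CPM in shear and 13.0 CPM in static libraries) did not pass the test. Of the other lists, the osteoblast marker Dmp1 rose (0.44 CPM in shear and 0.16 CPM in static libraries, edgeR adjusted p = 0.0479). Among fibroblast markers Dcn rose (495 against 439 CPM in static libraries) and Pdgfra fell (62.2 against 71.2 CPM). No macrophage or leukocyte marker was called. Csf1r and the untested Lyz2 and Ptprc were lower in each shear library than in any static library, while Cd14, Cd68 and Adgre1 overlapped. The part of these markers in the results below was not tested.

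A few carriers made up most of the transporter RNA. Slc38a10, Slc38a2 and Slc3a2 held 64.8% of all counts of the 58 genes over the 6 libraries, and the first 10 genes held 94.2%. Per length, Slc38a10, a little-studied member of the SLC38 family, was the most abundant, with 123 ± 3 CPM per kb of exon in shear and 122 ± 4 in static libraries (SD, n = 3 each). Slc3a2, the heavy chain also known as CD98, followed with 88.9 ± 3.4 CPM per kb in shear and 85.0 ± 2.9 in static libraries. Slc38a2, the carrier SNAT2 of the sodium-coupled uptake route called system A, had 63.1 ± 0.2 CPM per kb in shear and 85.5 ± 0.9 in static libraries, so that it stood clearly under Slc3a2 in sheared cells and within the replicate spread of it in static cells. The glutamate carrier Slc1a3, the exchanger Slc7a5 and the cationic amino acid carrier Slc7a1 lay between 15.8 and 28.9 CPM per kb. Slc7a1 changed place in this order, above Slc1a3 in shear libraries (23.0 ± 0.9 against 18.3 ± 0.7 CPM per kb) and below it in static libraries (15.8 ± 0.7 against 20.0 ± 0.6).

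**Figure D1:**
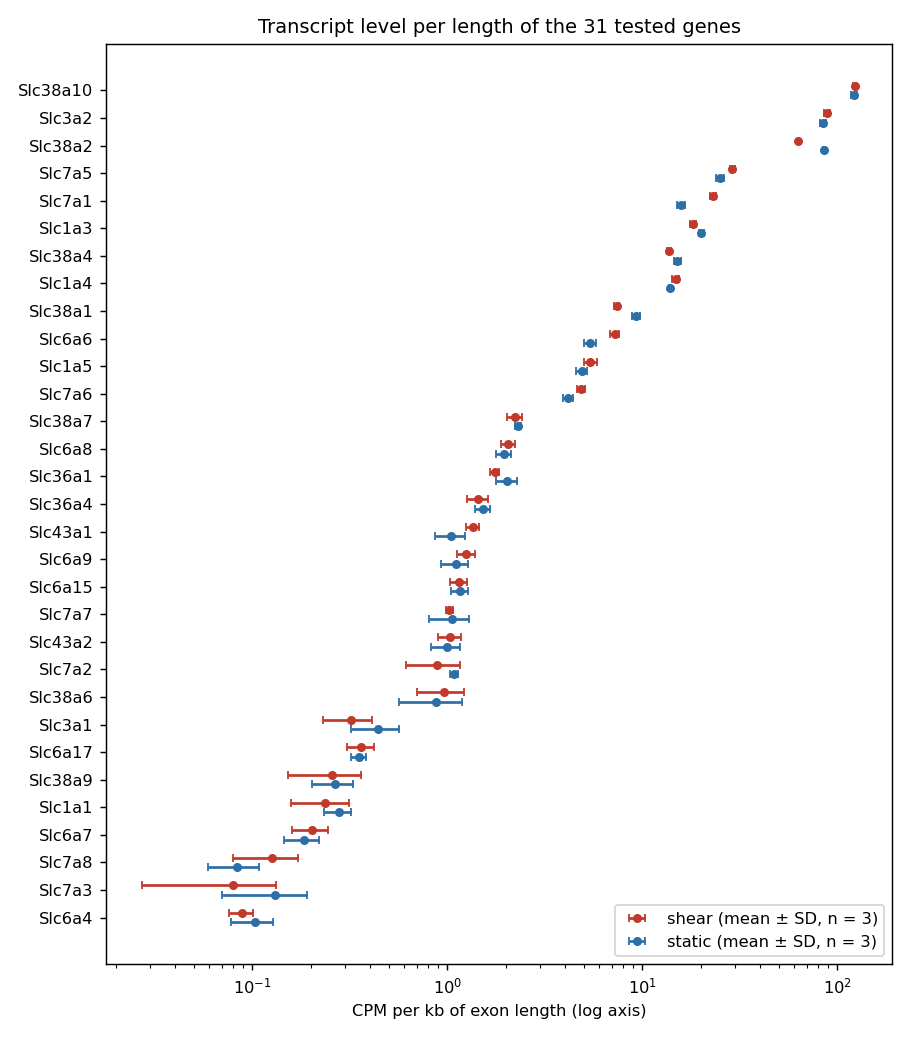
Level per length of the 31 tested amino acid transporter genes, in CPM per kb of exon on a log axis, as mean ± SD of 3 shear and 3 static libraries. Averaged over all libraries, the first 8 genes lie above 10 CPM per kb and the last 10 below 1 CPM per kb; Slc38a2 and Slc7a1 show the widest gaps between the groups among the abundant genes.

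Carriers differed in both directions between sheared and static cells. The cationic amino acid carrier gene Slc7a1, the exchanger genes Slc7a5 and Slc7a6 and the taurine carrier gene Slc6a6 were higher under shear. The system A carrier genes Slc38a2 and Slc38a1 were lower (edgeR adjusted p under 0.05 over 13945 genes for each of these). Thus 4 of the 31 tested genes rose and 2 fell, 25 did not pass, and 19.4% were called. The share called among all tested genes was 18.5%, with 10.8% higher and 7.71% lower, so the number of transporters called was near the background. The median log2 fold change of the 31 genes was 0.02, against -0.01 over all tested genes. Groups did not overlap for 10 transporters, 6 higher and 4 lower under shear. Among all tested genes this held for 32.7%, with 16.7% higher and 15.9% lower.

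The summed transporter RNA overlapped between the groups, at 1478 to 1523 CPM in shear and 1515 to 1554 CPM in static libraries. Without Slc38a2 the sum was 1185 to 1231 CPM in shear and 1120 to 1161 CPM in static libraries, and the groups no longer overlapped. Slc38a2 had the steepest called fall, so leaving it out moves the sum toward shear in any case. Slc7a1 alone held a mean of 152 CPM of that sum in shear and 104 CPM in static libraries. The share of Slc38a2 in the transporter counts was 19.5% ± 0.3 in shear and 25.8% ± 0.5 in static libraries (SD, n = 3 each). The share of Slc7a1 was 10.1% ± 0.3 in shear and 6.77% ± 0.34 in static libraries.

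**Figure D2:**
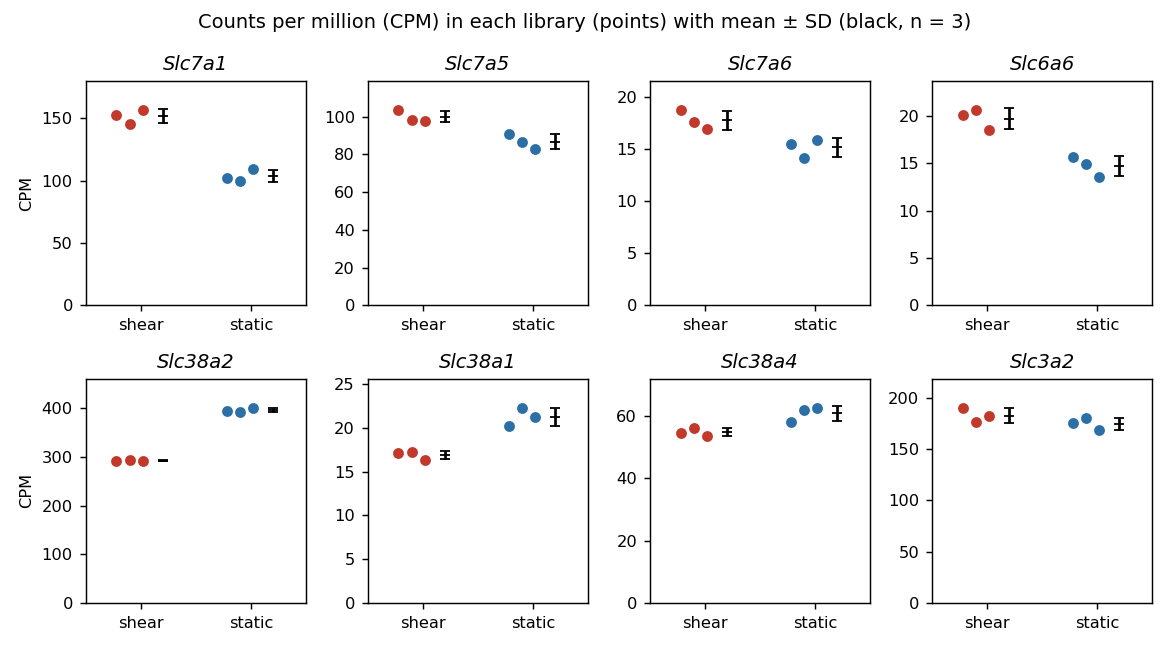
CPM in each shear and static library (points), with mean ± SD (n = 3), for 8 carriers; each axis starts at 0. The shear points lie above the static ones for Slc7a1, Slc7a5, Slc7a6 and Slc6a6, below them for Slc38a2, Slc38a1 and Slc38a4, and overlap them for Slc3a2.

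The sequence ahead of the gene start is shown for the carriers with the steepest called rise and fall, Slc7a1 and Slc38a2, for the abundant exchanger Slc7a5 and for Slc38a1, which lies beside Slc38a2 and fell with it. Each is the 250 bases before the RefSeq gene start, 5′ to 3′ on the gene's strand. Capitals mark matches, on either strand, to TGATGNAA (the C/EBP-ATF response element, which ATF4 is known to bind), TGANTCA (AP-1), TGACNNNGC (the antioxidant response element) or CACGTG (the E-box). An antioxidant response element match that begins TGACTCA can share bases with an AP-1 match; none printed here does.
Slc7a1 (GRCr8 chr12:11664238-11664487, plus strand): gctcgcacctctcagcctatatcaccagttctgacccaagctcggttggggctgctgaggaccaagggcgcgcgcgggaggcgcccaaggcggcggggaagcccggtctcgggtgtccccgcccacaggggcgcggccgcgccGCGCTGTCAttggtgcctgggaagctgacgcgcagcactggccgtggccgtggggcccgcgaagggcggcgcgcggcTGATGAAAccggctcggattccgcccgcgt
Slc7a5 (GRCr8 chr19:66872413-66872662, minus strand): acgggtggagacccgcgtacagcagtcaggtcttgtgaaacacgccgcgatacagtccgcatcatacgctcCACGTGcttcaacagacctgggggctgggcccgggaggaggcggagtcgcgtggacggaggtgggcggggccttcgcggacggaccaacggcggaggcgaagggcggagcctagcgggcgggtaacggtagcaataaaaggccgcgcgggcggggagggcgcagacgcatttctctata
Slc38a2 (GRCr8 chr7:129742620-129742869, minus strand): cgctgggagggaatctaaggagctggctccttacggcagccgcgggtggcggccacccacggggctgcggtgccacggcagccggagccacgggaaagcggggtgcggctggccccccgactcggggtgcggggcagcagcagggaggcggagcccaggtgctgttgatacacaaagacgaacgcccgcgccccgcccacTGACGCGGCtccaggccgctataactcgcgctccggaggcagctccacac
Slc38a1 (GRCr8 chr7:129681402-129681651, minus strand): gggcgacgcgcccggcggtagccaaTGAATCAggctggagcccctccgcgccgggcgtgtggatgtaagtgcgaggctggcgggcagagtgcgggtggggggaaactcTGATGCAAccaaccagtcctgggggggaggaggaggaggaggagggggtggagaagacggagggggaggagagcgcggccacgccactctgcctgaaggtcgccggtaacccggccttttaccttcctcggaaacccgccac

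In Slc7a1 the capitals hold TGATGAAA, a C/EBP-ATF match whose first base lies 30 bases before the gene start, and an antioxidant response element match on the other strand. In Slc38a1 they hold TGATGCAA, a C/EBP-ATF match 142 bases before the start, and an AP-1 match. Slc7a5 holds an E-box 179 bases before its start and Slc38a2 an antioxidant response element match 50 bases before its start. Of all 33469 such windows 3.4% held the C/EBP-ATF match, 6.34% the AP-1, 10.1% the antioxidant response element and 5.59% the E-box match. Of the 31 tested carriers 24 were matched to 27 windows, of which 3, 4, 7 and 5 held these motifs in the same order. These are 11.1%, 14.8%, 25.9% and 18.5%. The sets are unlike, as the 33469 windows were not limited to genes tested in these cells, and the shares among tested genes were not computed. A C/EBP-ATF match stood ahead of Slc7a1, which rose, of Slc38a1, which fell, and of Slc1a4, which did not pass the test. Only the 250 bases before each gene start were searched. A window without a match therefore does not show that the gene lacks the motif elsewhere. A match is a description of letters and not a binding site.

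Cationic amino acids such as arginine and lysine enter most cells through Slc7a1, the carrier CAT1. Slc7a1 had 153, 145 and 156 CPM in the shear libraries, against 102, 99.99 and 109 CPM in the static libraries. Every shear library lay above every static library. The log2 fold change was 0.55 ± 0.05 (SE, adjusted p by edgeR = 1.06e-08), a rise of 1.46-fold. Its relatives Slc7a2 and Slc7a3 (CAT2 and CAT3) were far lower, at 0.89 and 0.08 CPM per kb in shear and 1.08 and 0.13 CPM per kb in static libraries. Their log2 fold changes of -0.29 ± 0.20 and -0.71 ± 0.53 (SE) did not pass (edgeR adjusted p = 0.374 and 0.414). Slc7a1 supplied 96.0% ± 0.9 of the length-scaled RNA of the 3 genes in shear and 92.9% ± 0.4 in static libraries (SD, n = 3 each).

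Slc3a2 encodes the heavy chain that carries several SLC7 light chains to the cell surface. It had 190.0, 176 and 182 CPM in shear libraries, against 175, 180.0 and 168 CPM in static libraries, and the groups overlapped. Its log2 fold change was 0.07 ± 0.05 (SE, adjusted p by edgeR = 0.395). Its partner Slc7a5, or LAT1, exchanges glutamine for leucine and other large neutral amino acids. Slc7a5 had 103, 98.5 and 97.9 CPM in shear libraries, against 91.0, 86.4 and 82.9 CPM in static libraries. All shear libraries were above all static libraries, at a log2 fold change of 0.20 ± 0.05 (SE, adjusted p by edgeR = 0.0053).

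Slc7a6, the partner that exchanges cationic for neutral amino acids, had 18.7, 17.6 and 16.96 CPM in shear libraries, against 15.5, 14.2 and 15.8 CPM in static libraries. The groups did not overlap, and the log2 fold change was 0.23 ± 0.08 (SE, adjusted p by edgeR = 0.0462). This call was at the edge of the threshold: edgeR's adjusted p was 0.138 without shear replicate 1, 0.0836 without shear replicate 2, 0.056 without shear replicate 3, 0.0806 without static replicate 1 and 0.195 without static replicate 2. It was also lost with DESeq2 (adjusted p = 0.088), limma-voom (0.0502), upper-quartile factors (0.0809) and library totals alone (0.126).

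The remaining partners were scarce. Slc7a7, a close relative of Slc7a6, had 1.91, 1.78 and 1.77 CPM in shear libraries, against 2.26, 1.39 and 1.96 CPM in static libraries, and Slc7a8, or LAT2, had 0.36, 0.73 and 0.48 CPM in shear libraries, against 0.41, 0.40 and 0.23 CPM in static libraries. Both overlapped between the groups; their log2 fold changes were -0.04 ± 0.22 and 0.58 ± 0.43 (SE, adjusted p by edgeR = 0.933 and 0.402). Slc7a10 had at most 7 counts in a library and was not tested. Summed per length, the light chains Slc7a5, Slc7a6, Slc7a7 and Slc7a8 came to 34.9 ± 1.1 CPM per kb in shear and 30.4 ± 1.3 CPM per kb in static libraries (SD, n = 3 each), below the heavy chain in each library. The excluded partner Slc7a11, which exchanges cystine for glutamate, had 32.0, 33.5 and 36.4 CPM in shear libraries, against 21.5, 21.4 and 19.4 CPM in static libraries. With it the light chains summed to 38.7 ± 0.9 CPM per kb in shear and 32.7 ± 1.4 CPM per kb in static libraries. Slc3a1, the heavy chain of kidney and gut, had a log2 fold change of -0.46 ± 0.32 (SE, adjusted p by edgeR = 0.375) at under 1 CPM per kb.

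System A carriers bring small neutral amino acids such as alanine, serine and glutamine into the cell with sodium. Slc38a2 had 291, 293 and 292 CPM in shear libraries, against 396, 393 and 401 CPM in static libraries. Each group was tight and the groups lay far apart, with a log2 fold change of -0.44 ± 0.04 (SE, adjusted p by edgeR = 3.68e-08). Slc38a1, or SNAT1, had 17.1, 17.2 and 16.3 CPM in shear libraries, against 20.2, 22.3 and 21.2 CPM in static libraries. All its shear libraries lay below all static libraries, at a log2 fold change of -0.33 ± 0.07 (SE, adjusted p by edgeR = 0.00181). Slc38a4, or SNAT4, had 54.5, 56.2 and 53.6 CPM in shear libraries, against 58.1, 61.8 and 62.5 CPM in static libraries. Its groups did not overlap either, but the log2 fold change of -0.15 ± 0.05 (SE, adjusted p by edgeR = 0.0515) did not pass. It passed without static replicate 1 (edgeR adjusted p = 0.0462), with upper-quartile factors (0.0225), with library totals alone (0.00962) and with counts halved (0.0495).

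The system A genes lie near each other on chromosome 7 and on the same strand, with Slc38a1 and Slc38a2 next to each other among the tested genes, which the choice of genes did not use. In the count table's coordinates, whose build is not given in the sources used here, Slc38a1 spans 137975549 to 138039984, Slc38a2 138088649 to 138100841 and Slc38a4 138459504 to 138512952. A gap of 48.7 kb separates Slc38a1 from Slc38a2 and 359 kb separate Slc38a2 from Slc38a4. The 5 tested genes on each side and the 1 between Slc38a2 and Slc38a4 showed no common direction. Of these 11 genes, the membrane protein gene Ano6 rose (log2 fold change 0.20 ± 0.04, SE, adjusted p by edgeR = 0.00153), Amigo2, which encodes a cell adhesion protein and lies next to Slc38a4, fell (-0.85 ± 0.27, SE, adjusted p by edgeR = 0.0265), and 9 did not pass. Amigo2 had 0.82 CPM in shear and 1.49 CPM in static libraries.

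**Figure D3:**
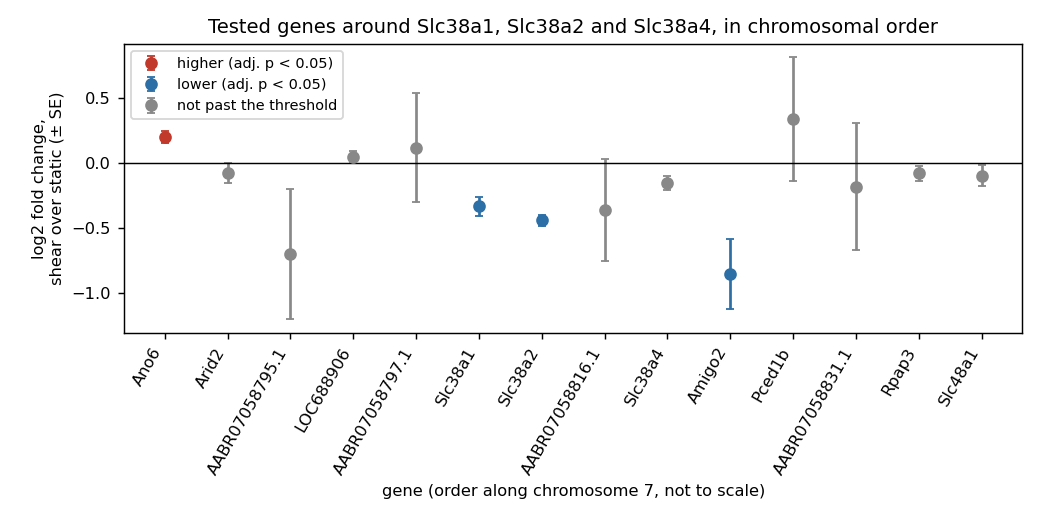
Log2 fold change, shear over static, with SE, of Slc38a1, Slc38a2, Slc38a4 and the 11 other tested genes around them, in their order along chromosome 7. Slc38a1 and Slc38a2 lie below 0 beside each other, Ano6 rose, Amigo2 fell, and the genes with placeholder symbols have wide errors.

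Other SLC38 carriers gave no call. Slc38a10 had 472, 453 and 461 CPM in shear libraries, against 443, 475 and 452 CPM in static libraries, and the groups overlapped. Its log2 fold change was 0.02 ± 0.04 (SE, adjusted p by edgeR = 0.85), and it was slightly negative with upper-quartile factors (-0.01), with library totals alone (-0.03) and without static replicate 1 (-0.0021). Slc38a7, which exports glutamine from lysosomes, and Slc38a9, the lysosomal carrier that senses arginine for mTORC1, had log2 fold changes of -0.05 ± 0.10 and -0.05 ± 0.30 (SE, adjusted p by edgeR = 0.807 and 0.935). Slc38a6 overlapped between the groups too, at 2.22 ± 0.59 CPM in shear and 2.04 ± 0.72 CPM in static libraries (SD, n = 3 each).

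The SLC1 family holds carriers of glutamate and of neutral amino acids. Slc1a3, the glutamate carrier GLAST, had 73.1, 75.4 and 69.9 CPM in shear libraries, against 77.8, 82.4 and 79.1 CPM in static libraries. Its groups did not overlap, but the log2 fold change of -0.13 ± 0.05 (SE, adjusted p by edgeR = 0.0771) passed the threshold only under other scalings, with upper-quartile factors (adjusted p = 0.0332) and with library totals alone (0.0137). Slc1a4, or ASCT1, which carries serine and alanine, had 58.2, 55.1 and 59.7 CPM in shear libraries, against 52.8, 54.1 and 54.0 CPM in static libraries. The shear libraries lay above the static ones by a small margin, with a log2 fold change of 0.10 ± 0.05 (SE, adjusted p by edgeR = 0.203). Slc1a5, or ASCT2, a glutamine exchanger, had 14.9 ± 1.2 CPM in shear and 13.5 ± 0.9 CPM in static libraries (SD, n = 3 each), and its groups overlapped (log2 fold change 0.15 ± 0.09, SE, adjusted p by edgeR = 0.272). Slc1a1, a glutamate and cysteine carrier, was under 1 CPM per kb in both groups.

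In the SLC6 family, whose members take up amino acids, neurotransmitters, taurine and creatine with sodium and chloride, Slc6a6 was the called gene. This carrier of taurine, an amino acid that cells also use to balance their osmotic content, had 20.1, 20.6 and 18.5 CPM in shear libraries, against 15.6, 14.9 and 13.6 CPM in static libraries. All shear libraries lay above all static libraries, and the log2 fold change was 0.42 ± 0.08 (SE, adjusted p by edgeR = 0.000383), a rise of 1.34-fold. The creatine carrier Slc6a8 and the glycine carrier Slc6a9 had log2 fold changes of 0.08 ± 0.11 and 0.18 ± 0.15 (SE, adjusted p by edgeR = 0.701 and 0.48). Slc6a15, a carrier of branched-chain amino acids and proline, had 4.49 ± 0.44 CPM in shear and 4.56 ± 0.47 CPM in static libraries (SD, n = 3 each). The proline carrier Slc6a7, the serotonin carrier Slc6a4 and Slc6a17 were tested at under 1 CPM per kb, and their groups overlapped.

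The SLC36 and SLC43 families added no call. Slc36a1, a proton-coupled carrier of lysosomes and the cell surface, had 5.40 ± 0.31 CPM in shear and 6.25 ± 0.77 CPM in static libraries (SD, n = 3 each), and its relative Slc36a4 had 4.25 ± 0.51 CPM in shear and 4.53 ± 0.39 CPM in static libraries. Both overlapped between the groups (edgeR adjusted p = 0.279 and 0.723). Slc43a1, or LAT3, which moves large neutral amino acids without sodium, had 2.47, 2.27 and 2.64 CPM in shear libraries, against 2.26, 1.59 and 1.88 CPM in static libraries. Its shear libraries lay above its static libraries by a narrow margin, and the log2 fold change of 0.37 ± 0.19 (SE, adjusted p by edgeR = 0.218) did not pass. Slc43a2, or LAT4, had a log2 fold change of 0.05 ± 0.15 (SE, adjusted p by edgeR = 0.861).

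**Figure D4:**
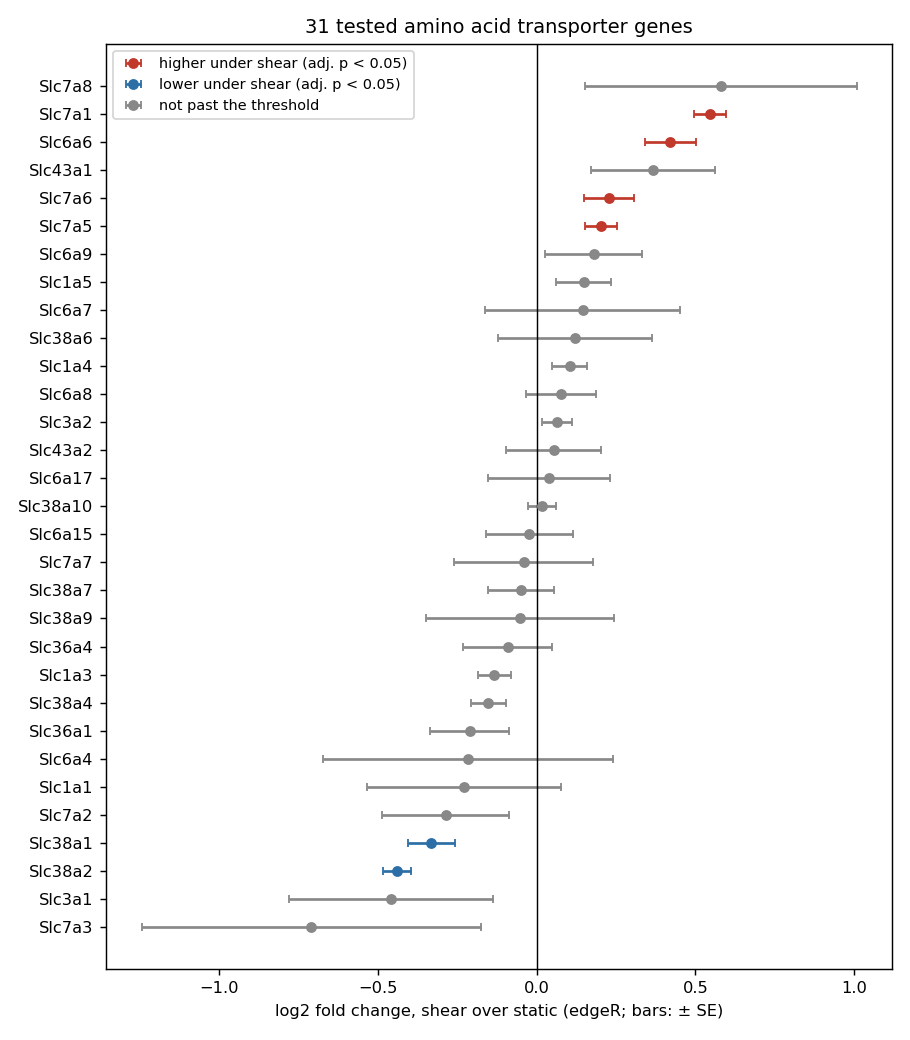
Log2 fold change, shear over static, with SE for the 31 tested amino acid transporter genes, sorted by size; colour marks edgeR adjusted p under 0.05. The called genes reach 0.55 (Slc7a1) and -0.44 (Slc38a2), and the extremes Slc7a8 (0.58) and Slc7a3 (-0.71) have wide errors.

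Scarce genes were measured less precisely. The SE of the log2 fold change had a median of 0.05 in the 8 genes above 10 CPM per kb and of 0.31 in the 10 genes under 1 CPM per kb. The 25 genes without a call ranged from -0.71 to 0.58 on the log2 scale. Of the 27 genes that were not tested, 19 had a count, of which 18 had at most 7 counts in any library and Slc38a8 reached 13. They include carriers of gut, kidney and nerve such as Slc7a9, Slc6a19 and Slc1a6. Slc6a11, Slc6a14, Slc6a18, Slc7a13, Slc7a14, Slc7a15, Slc36a3 and Slc38a11 had 0 counts in every library, which allows up to 0.0919 CPM in a library at 3 counts, for counting error only.

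Genes that make, sense or use amino acids were counted beside the carriers, from lists chosen with earlier results of these data known. Of 18 tested genes of ATF4 and the integrated stress response that encode no transporter, 8 rose and 2 fell, or 44.4% and 11.1%, against 10.8% and 7.71% of all tested genes. Their median was 0.03 on the log2 scale, against -0.01 over all tested genes. The 8 genes that did not pass ranged from -0.26 (Ddit4) to 0.04 (Eif4ebp1), with Atf5 at -0.19 and Ddit3 at -0.05. Atf4 itself had 513 CPM in shear and 400.0 CPM in static libraries, a log2 fold change of 0.36 ± 0.04 (SE, adjusted p by edgeR = 9.24e-07). The stress-induced transcription factor Atf3 rose by 0.83, Chac1, which degrades glutathione, by 0.69, the phosphatase subunits Ppp1r15a and Ppp1r15b, which reverse the phosphorylation of eIF2α, by 0.39 and 0.28, and the pseudokinase Trib3 by 0.34. The members that fell were the secreted hormone Stc2 (-0.26) and the eIF2α kinase Eif2ak1 (-0.18); without static replicate 3 neither was called, and 1 was called without each shear replicate.

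Of 21 tested enzymes of amino acid synthesis and interconversion 5 rose, none fell and 16 did not pass (edgeR; 5 and 1 at an unadjusted p under 0.05, and none fell with DESeq2 or limma-voom), with a median of 0.01. These were 23.8% called, all higher, against 18.5% called and 10.8% higher among all tested genes. Among those that rose, Glul, which makes glutamine, rose by 0.19 on the log2 scale. The serine enzyme Psph rose by 0.28, the mitochondrial folate enzyme Mthfd2 by 0.18 and Bcat1, which starts the breakdown of branched-chain amino acids, by 0.16. The count of enzymes that rose was 3 without shear replicate 3 or static replicate 1. Asns (-0.10), Psat1 (-0.09) and Phgdh (-0.14) did not pass, though all their shear libraries lay below all static libraries. Of 20 aminoacyl-tRNA synthetases, which load amino acids onto tRNA, 3 rose and none fell (edgeR; 6 and 0 at an unadjusted p under 0.05, 4 and 0 with DESeq2 and with limma-voom). These were the synthetases of cysteine, asparagine and glutamate with proline, Cars (0.26), Nars (0.24) and Eprs (0.16). Their share of 15%, all higher, was near the 18.5% called among all tested genes, with 10.8% higher and 7.71% lower.

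Of 26 tested genes of mTORC1 amino acid sensing 4 rose and none fell (edgeR; 5 and 2 at an unadjusted p under 0.05, 3 and 0 with DESeq2, 4 and 0 with limma-voom), with a median of -0.02, and the 15.4% called were likewise near the background of 18.5%. All 4 calls were higher, beside 10.8% higher and 7.71% lower among all tested genes. The GTPase genes Rheb (0.23) and Rraga (0.21) and the folliculin partners Fnip2 (0.32) and Fnip1 (0.18) rose. The count was 2 without shear replicate 2, shear replicate 3, static replicate 1 or static replicate 2. Rptor (-0.18), Mlst8 (-0.19) and Tsc2 (-0.11) did not pass, though all their shear libraries lay below all static libraries. In this list the shear libraries lay wholly above the static ones for 5 genes and wholly below for 3. Of 14 tested carriers outside the rule, Slc7a11 (0.71) and the mitochondrial aspartate and glutamate carrier Slc25a13 (0.35) rose and none fell (edgeR; 2 and 0 at an unadjusted p under 0.05, 1 and 0 with DESeq2, 2 and 0 with limma-voom), which is 14.3% called beside the same 18.5%. The count was 1 without shear replicate 2, shear replicate 3 or static replicate 2. The 14.3% were all higher, beside the same 10.8% higher and 7.71% lower among all tested genes.

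**Figure D5:**
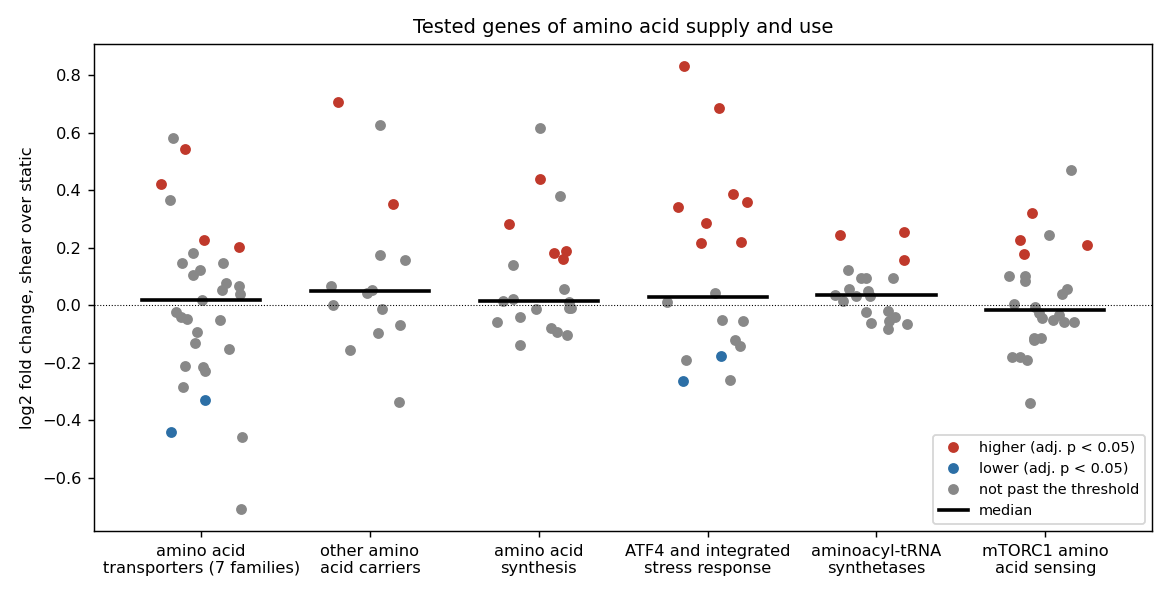
Log2 fold change, shear over static, of every tested gene in the transporter set and 5 lists of genes of amino acid supply and use; bars are medians, colour marks edgeR adjusted p under 0.05, and points are spread sideways for view. Medians lie between -0.02 and 0.05, and the called genes of the synthetase, synthesis, sensing and other carrier lists lie above 0.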

How the data were processed

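The authors deposited 1 table of raw counts per gene for 6 libraries, with exon positions and the summed exon length, per the file headers. Libraries were stranded mRNA libraries from total RNA, per the labels' protocols. Trimming with Trimmomatic 0.36, counting with featureCounts of Subread 1.5.1, and edgeR 3.12.1 are listed in the submitters' processing notes. For the aligner, genome build, annotation and strand setting, nothing was given in the sources used here. Without strand, opposite genes could share reads over at most 1.04% of a tested carrier's exons (Slc38a6, Slc6a9). Counts from 1 to 20 were even in 71.4% to 72.2% of cases, so pairs may have been counted as 2 reads and counting intervals are then too narrow.

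Columns were matched to libraries by the names in the labels. Genes were filtered with filterByExpr (minimum count 10), scaled with TMM factors and compared with edgeR 4.0.16 (R 4.3.3), two-sided quasi-likelihood test without covariates, with Benjamini-Hochberg adjustment over 13945 genes and a threshold of 0.05; 4102 genes had an unadjusted p under 0.05. CPM use TMM-scaled library totals, and CPM per kb divide by exon length. Each SE was derived from the fold change and its F statistic (|log2 fold change| / √F). The test was checked on simulated data. Replicates differed beyond sampling noise (chi-square over degrees of freedom 5.32 to 7.75).

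The transporters and the 5 lists were chosen with earlier results of these data known. In full are given the called transporters, the 8 most abundant per length and Slc3a2 with its partners; of each list, up to 6 called genes, to which Stc2 and Eif2ak1 were added after their values were seen. Cth, Nupr1, Rragb, Lamtor1 and Seh1l, and the marker Pecam1, are not analysed here, and some genes within the counts are not reported here by name. Alternatives were other scalings, no filter, DESeq2 1.42.0, limma-voom (limma 3.58.1), a replicate block, halved counts and leaving out each library. Promoter windows are RefSeq's (GRCr8), matched by symbol for 43 of 58 genes.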

Additional observations from a re-analysis of the deposited data

How the results depend on the processing

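Under 14 alternatives Slc7a1, Slc7a5, Slc6a6, Slc38a2 and Slc38a1 kept their direction and call; Slc7a6 lost its call in 10. Transporters that rose numbered 3 to 4 throughout; those that fell numbered 4 both when scaled by upper quartiles and by library totals alone (Slc1a3 and Slc38a4 added) and 2 to 3 without 1 library. Over all genes 1508 rose and 1075 fell, against 1275 and 1364 when scaled by upper quartiles and 1124 and 1730 when scaled by library totals alone. The transporters' median was -0.0328 with library totals alone and -0.0401 to 0.0292 without 1 library. In the lists, library totals alone gave 2 synthesis enzymes higher and 1 lower, 4 ATF4 genes lower, and 2 sensing genes higher and 4 lower; upper-quartile factors gave 4 ATF4 genes and 1 sensing gene lower. No filter and DESeq2 each left 1 ATF4 gene lower, and DESeq2 left 1 other carrier higher. Without 1 library, synthesis enzymes higher were 3 to 5 and lower 0 to 1, ATF4 genes lower 0 to 2, sensing genes higher 2 to 4 and lower 0 to 1, and other carriers higher 1 to 2. The causes were not tested.

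Signs of uncalled genes turned: Slc38a10 to -0.0089 with upper-quartile factors, and further to -0.033 with library totals alone, and Slc6a17 to -0.010 with library totals alone. Without 1 library the log2 fold changes ranged from -0.0021 to 0.049 for Slc38a10, -0.073 to 0.15 for Slc6a17, -0.32 to 0.0043 for Slc6a4, -0.079 to 0.16 for Slc43a2, -0.21 to 0.12 for Slc7a7, -0.00075 to 0.33 for Slc6a7, -0.12 to 0.00061 for Slc38a7, -0.43 to 0.14 for Slc38a9, -0.13 to 0.37 for Slc38a6 and -0.10 to 0.047 for Slc6a15.

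The labels give libraries with the same replicate number nothing in common but the number. Their deviations from the group means correlated at -0.019 to -0.000505, and those of libraries with unlike numbers at -0.0135 to 0.0319. Whether libraries share an animal or a batch was not tested. With the replicate block 1372 genes rose and 964 fell, with 3 transporters higher and 2 lower; Slc7a6 had an edgeR adjusted p of 0.0605.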
